A study of Homo sapiens with 27 samples.

Results

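The exon junction complex is a set of proteins that the spliceosome leaves on an mRNA just upstream of the junctions it has made. The genes described here were chosen by symbol, before any filter on their levels. They were the core genes EIF4A3, RBM8A, MAGOH, MAGOHB and CASC3, and the peripheral genes RNPS1, ACIN1 and SAP18, 8 genes in all. Of these, 7 were found by their Ensembl ID among the 34464 genes of the deposited table. RBM8A, which encodes the core protein Y14, was looked up by its ID in a later annotation than that of the authors. That ID had no row in the table, so RBM8A was not analysed here. Of the IDs in the table, 1688 had no match in the later annotation. Whether RBM8A is among them under an older ID was not tested. All 7 others passed the filter of a mean above 1 FPKM (fragments per length of transcript and per size of library), as did 14611 genes in all.

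The cells were U2OS, a human osteosarcoma cell line, grown for 5 days with a control shRNA or with 1 of 2 lentiviral shRNAs against TPR, called TPR A and TPR D. TPR is a protein of the nuclear pore basket. Each culture was split with detergent into a nuclear and a cytoplasmic/ER fraction, and an unfractionated sample of the same cells was kept as the total fraction. Poly(A)+ RNA was sequenced from 3 replicates of each of the 9 combinations, 27 libraries in all, and the study asked how loss of TPR changes the distribution of mRNAs between nucleus and cytoplasm. All of the groups carry an shRNA, the control ones included. The methods call the replicates biological and say no more of how they were grown, so p-values measure the spread between these samples.

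The complex clamps onto RNA through EIF4A3, a DEAD-box helicase held closed by the heterodimer of Y14 and MAGOH, and CASC3 (also called MLN51 or BTZ) joins it as the mRNA matures. RNPS1, SAP18 and ACIN1 (Acinus) form the peripheral ASAP assembly, in which PNN can take the place of ACIN1 to give PSAP. The complex marks an mRNA as spliced, assists its export, and activates nonsense-mediated decay when it remains downstream of a stop codon. MAGOH and MAGOHB are paralogs whose products both pair with Y14.

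The genes lie on several chromosomes (positions from GENCODE 44 on GRCh37, whole gene with introns). EIF4A3 is at chr17:78108168-78120950 on the minus strand and CASC3 at chr17:38296571-38328424 on the plus strand. MAGOH is at chr1:53692572-53704190 and MAGOHB at chr12:10756792-10766208, both on the minus strand. RNPS1 is at chr16:2303117-2318398 and ACIN1 at chr14:23527773-23564823, both on the minus strand, and SAP18 is at chr13:21714258-21723236 on the plus strand. All 7 are annotated as protein-coding.

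MAGOH and MAGOHB are paralogs with similar coding sequences, which bear on how far reads can tell them apart. Over 438 aligned coding bases 380 were identical (86.8%), and the longest identical run was 38 bases. Of the 626 words of 31 bases in the annotated MAGOH mRNA, 10 were also in the MAGOHB mRNA. Below are the 30 coding bases in which the paralogs differed at 8 positions, with the differing bases in capitals. The MAGOH window is coding bases 4 to 33 (chr1:53704088-53704117, minus strand) and the MAGOHB window is coding bases 10 to 39 (chr12:10766093-10766122, minus strand), and each lies within a single coding exon.
MAGOH: gAGagTgaCttTtaTctgcgTtactacgtG
MAGOHB: gCTagCgaTttCtaCctgcgCtactacgtA
Reads that fall wholly within an identical run cannot be assigned to either gene by sequence, so the values of each paralog carry that uncertainty. EIF4A3 shared 118 of 2494 such words (4.73%) with other protein-coding or lncRNA genes and ACIN1 6 of 4430, and RNPS1, CASC3 and SAP18 shared none.

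TPR, the targeted gene, was lower in every depleted library than in any control library of the same fraction. In the total fraction it was at 25.3 to 28.2 FPKM in the 3 control libraries and at 3.23 to 6.01 FPKM in the 6 depleted ones. The change was -2.59 (SE 0.36, adjusted p = 0.00122) with TPR A and -2.44 (adjusted p = 0.0016) with TPR D on the log2 scale (limma). In these bulk libraries fewer cells with an mRNA and less of it in each cell cannot be told apart. The mesenchymal genes VIM, SPARC, RUNX2 and COL1A1 were above 6 FPKM in all 27 libraries, PTPRC and CDH1 never exceeded 1.67 FPKM, EPCAM reached 6.87 FPKM, and ALB and CDH5 were near 0.

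Both the nuclear and the total library labelled control replicate 2 went against their labels. Transcripts of the mitochondrial genome took 21.8% of the summed FPKM in the library labelled nuclear, where the other 8 nuclear libraries had 0.774 to 2.42%. They took 0.738% in the library labelled total, where the other 8 total libraries had 15.8 to 24.7%. The first had a higher correlation across genes with the other total libraries (Pearson r = 0.977) than with the other nuclear ones (0.944), and the second the reverse (0.940 with total, 0.973 with nuclear). Labels were kept, and the changes described for single members are given with and without this culture where it moved them most.

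The members differed in level. By the median over all 27 libraries, SAP18 was highest (342 FPKM), followed by RNPS1 (203), MAGOHB (93.9), MAGOH (90.0), EIF4A3 (80.5), CASC3 (47.5) and ACIN1 (44.4), all per length of transcript. Neighbours in this order overlapped. MAGOHB, MAGOH and EIF4A3 spanned 57.2 to 160, 50.7 to 146 and 47.1 to 143 FPKM, and CASC3 and ACIN1 spanned 23.2 to 66.4 and 27.4 to 80.8 FPKM. The lowest SAP18 library (174 FPKM) was below the highest RNPS1 library (386 FPKM).

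**Figure D1:**
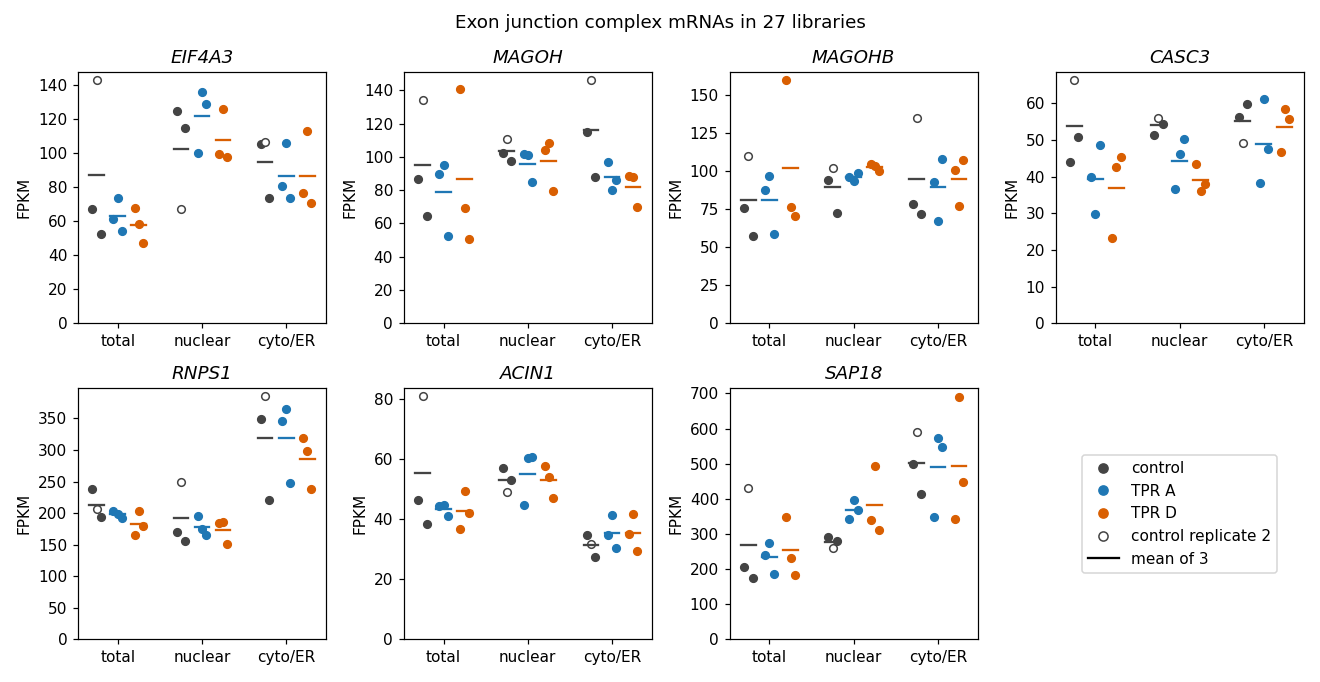
FPKM of the 7 members (1 panel each, vertical axis from 0) in the total, nuclear and cytoplasmic/ER libraries. Points are single libraries, bars the mean of 3, and open circles control replicate 2. Its total library was the highest of its group for every member but RNPS1, as for EIF4A3 (143 FPKM), ACIN1 (80.8 FPKM) and SAP18 (430 FPKM).

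EIF4A3, the helicase of the core, was at 67.0, 143 and 52.3 FPKM in the total libraries of control replicates 1 to 3. It was at 61.3, 73.6 and 54.1 FPKM with TPR A and at 67.9, 58.2 and 47.1 FPKM with TPR D. Apart from control replicate 2 the 3 groups covered the same range. In the nuclear fraction EIF4A3 was at 125, 67.4 and 115 FPKM in control cells, at 100, 136 and 129 FPKM with TPR A and at 99.5, 126 and 97.5 FPKM with TPR D. Again the odd value was that of control replicate 2, here the lowest of 9. In the cytoplasmic/ER fraction it was at 105, 107 and 73.4 FPKM in control cells and at 70.7 to 113 FPKM in the 6 depleted cultures, and the groups overlapped. The change in the total fraction was -0.28 (SE 0.29, adjusted p = 0.719) with TPR A and -0.40 (adjusted p = 0.537) with TPR D, log2 TPR-depleted minus control. Without control replicate 2 these were 0.11 (adjusted p = 0.990) and -0.01 (adjusted p = 0.999).

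MAGOH and MAGOHB, the Y14 partners, were the most alike of the core genes in level. In the total fraction MAGOH was at 86.8, 134 and 64.2 FPKM in control cells, 90.0, 95.04 and 52.1 FPKM with TPR A and 141, 69.1 and 50.7 FPKM with TPR D. MAGOHB was at 75.3, 110 and 57.2 FPKM in control cells, 87.6, 96.3 and 58.8 FPKM with TPR A and 160, 76.2 and 70.1 FPKM with TPR D. Both were highest in TPR D replicate 1 and in control replicate 2, and the groups overlapped for both. In the nuclear fraction the 9 values of MAGOH lay between 79.2 and 110 FPKM and those of MAGOHB between 72.5 and 104 FPKM. In the cytoplasmic/ER fraction they lay between 69.6 and 146 FPKM and between 67.2 and 134 FPKM. No change of either gene passed the threshold in any fraction. The largest was that of MAGOH in the cytoplasmic/ER fraction with TPR D, -0.46 (SE 0.30, adjusted p = 0.732), which was -0.28 (adjusted p = 0.957) without control replicate 2. Without that culture the largest was instead that of MAGOHB in the total fraction with TPR D, 0.57 (adjusted p = 0.598). With all cultures this change of MAGOHB was 0.36 (adjusted p = 0.589), and with only TPR D replicate 1 left out it was -0.02 (adjusted p = 0.986).

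The balance of the 2 paralogs was looked at after their values were seen, and is given with no test. MAGOHB made up 46.5, 44.96 and 47.1% of the summed FPKM of the pair in the total libraries of control cells. It made up 49.3, 50.3 and 52.99% with TPR A and 53.2, 52.4 and 58.01% with TPR D. All 6 depleted cultures were thus above all 3 control cultures in the total fraction. How many pairs of genes separate in this way was not computed. Of single genes, 3.94% were higher and 2.98% lower without overlap in this fraction. The control value of 44.96% is that of replicate 2, whose library labelled total went against its label. In the nuclear fraction the groups overlapped, at 42.6 to 48.0% in control, 47.9 to 53.8% in TPR A and 48.8 to 55.8% in TPR D cultures. They also overlapped in the cytoplasmic/ER fraction, at 40.4 to 47.9%, 45.6 to 55.7% and 46.6 to 60.7%.

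CASC3 was at 43.95, 66.4 and 50.7 FPKM in the control total libraries, 40.0, 29.8 and 48.6 FPKM with TPR A and 23.2, 42.6 and 45.3 FPKM with TPR D. The lowest library was TPR D replicate 1, the one in which MAGOH and MAGOHB were highest. The change in the total fraction was -0.39 (SE 0.23, adjusted p = 0.5001) with TPR A and -0.50 (adjusted p = 0.323) with TPR D. Without control replicate 2 these were -0.26 (adjusted p = 0.928) and -0.37 (adjusted p = 0.760). The value with TPR A was -0.20 (adjusted p = 0.827) without TPR A replicate 2, and that with TPR D was -0.19 (adjusted p = 0.750) without TPR D replicate 1. In the nuclear fraction CASC3 was at 51.5, 56.03 and 54.4 FPKM in control cells, 36.5, 46.1 and 50.4 FPKM with TPR A and 43.3, 36.1 and 38.1 FPKM with TPR D. Here all 6 depleted cultures were below all 3 control cultures, as for 3.24% of all genes. The control value of 56.03 FPKM is that of replicate 2, whose library labelled nuclear went against its label. The fitted changes of -0.29 (SE 0.23, adjusted p = 0.656) and -0.46 (adjusted p = 0.569) did not pass the threshold (-0.26 and -0.42 without control replicate 2). In the cytoplasmic/ER fraction the groups overlapped, at 49.3 to 59.7 FPKM in control cells and 38.2 to 61.3 FPKM in the depleted cultures.

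Of the peripheral genes, RNPS1, which was first known as an activator of splicing, had the steadiest level over all 9 total libraries. It was at 239, 207 and 194 FPKM in control cells, 203, 198 and 193 FPKM with TPR A and 166, 204 and 179 FPKM with TPR D. Its 9 total libraries differed by a factor of 1.44 between the lowest and the highest, the smallest such span of the 7 members with control replicate 2 counted. ACIN1, the scaffold of ASAP, was at 46.4, 80.8 and 38.2 FPKM in control cells, 44.4, 44.8 and 41.0 FPKM with TPR A and 36.7, 49.2 and 42.03 FPKM with TPR D. Only control replicate 2 stood outside 36.7 to 49.2 FPKM, and the span of ACIN1 (a factor of 2.20) rested on that library. Without it ACIN1 had a narrower relative span than RNPS1. Without control replicate 2 the change of ACIN1 was 0.07 (adjusted p = 0.992) with TPR A and 0.05 (adjusted p = 0.978) with TPR D.

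SAP18, which is also a subunit of the Sin3 histone deacetylase complex, was at 205, 430 and 174 FPKM in the control total libraries, 241, 273 and 186 FPKM with TPR A and 348, 232 and 183 FPKM with TPR D. In the nuclear fraction it was at 291, 260 and 279 FPKM in control cells, 342, 397 and 370 FPKM with TPR A and 341, 493 and 311 FPKM with TPR D. The nuclear groups did not overlap, with all 6 depleted cultures higher, as for 2.97% of all genes. The control value of 260 FPKM is that of replicate 2, whose library labelled nuclear went against its label. Its library labelled total, at 430 FPKM, lay within the range of the depleted nuclear libraries. The fitted changes were 0.42 (SE 0.30, adjusted p = 0.623) with TPR A and 0.44 (adjusted p = 0.753) with TPR D, which did not pass (0.38 and 0.41 without control replicate 2). In the cytoplasmic/ER fraction SAP18 was at 500, 590 and 413 FPKM in control cells, 349, 572 and 548 FPKM with TPR A and 342, 689 and 449 FPKM with TPR D, and the groups overlapped.

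Counted over the members, 0 of 7 passed an adjusted p of 0.05 in any fraction with either shRNA. The share of all 14611 genes called was 0.821% (TPR A) and 0.753% (TPR D) in the total fraction, 0.903% and 0.479% in the nuclear fraction, and 0.623% and 0.575% in the cytoplasmic/ER fraction. By the unadjusted p of limma, CASC3 passed 0.05 in the total fraction with TPR D, the 1 member to do so there, where 14.6% of all genes did. In the other 5 comparisons 0 of 7 members had an unadjusted p under 0.05, against 12.6% of all genes in the total fraction with TPR A, 12.2% and 9.13% in the nuclear fraction with TPR A and TPR D, and 11.6% and 9.42% in the cytoplasmic/ER fraction. The median change of the members was -0.19 and -0.14 in the total fraction with TPR A and TPR D, 0.05 and 0.003 in the nuclear fraction and -0.02 and -0.05 in the cytoplasmic/ER fraction. Over all genes it was between -0.02 and -0.01. By groups that do not overlap, 0 of 7 members separated in the total fraction, where 3.94% of all genes were higher in all 6 depleted cultures and 2.98% lower. In the nuclear fraction SAP18 was higher (2.97% of all genes) and CASC3 lower (3.24%), and in the cytoplasmic/ER fraction 0 of 7 separated (2.5% and 2.89%). TPR A and TPR D, compared with each other in the total fraction, gave 0 of 7 members called (0.281% of all genes), with differences of -0.27 to 0.12. At an unadjusted p under 0.05 there were 0 of 7 (7.4% of all genes). Standard errors of 0.21 to 0.30 were larger than most of these changes, and changes of their size or smaller were not detectable with 3 replicates.

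**Figure D2:**
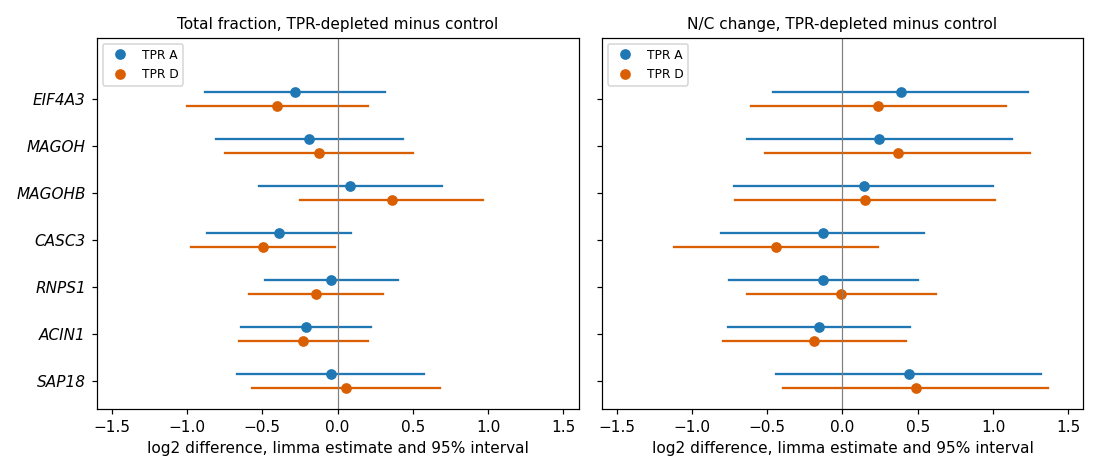
Log2 difference of TPR-depleted from control cells (horizontal axis, limma estimate with 95% interval) in the total fraction on the left and in the N/C ratio on the right, for TPR A and TPR D. CASC3 in the total fraction with TPR D (-0.98 to -0.02) is the 1 interval that leaves out 0, and its adjusted p was 0.323.

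Distribution between the fractions was taken as the N/C ratio, the nuclear over the cytoplasmic/ER level of the same culture after scaling of the libraries. Since the libraries were scaled by their median ratio over genes, a log2 N/C ratio of 0 marks a gene near the median. It does not mark equal numbers of molecules. Without control replicate 2, the nuclear lncRNA MALAT1 had medians of 126, 22.5 and 8.56 FPKM in total, nuclear and cytoplasmic/ER libraries. For NEAT1, another nuclear lncRNA, they were 108, 35.1 and 9.35 FPKM. By these medians both were lower in the nuclear than in the total libraries, a limit on the N/C ratios whose cause was not tested. ACIN1 and RNPS1, partners in ASAP, differed in direction. ACIN1 had a log2 N/C ratio above 0 in 9 of 9 cultures, at 0.74, 0.67 and 0.98 in control cells, 0.38, 0.55 and 1.00 with TPR A and 0.72, 0.38 and 0.72 with TPR D. It was richer in the nucleus by 0.80 (SE 0.21, adjusted p = 0.00424) in control cells, 0.64 (adjusted p = 0.0237) with TPR A and 0.61 (adjusted p = 0.028) with TPR D. RNPS1 was below 0 in 9 of 9 cultures, at -1.01, -0.59 and -0.46 in control cells, -0.81, -1.04 and -0.58 with TPR A and -0.79, -0.68 and -0.61 with TPR D. Its nuclear level was lower by 0.68 (SE 0.21, adjusted p = 0.0143) in control cells, 0.81 (adjusted p = 0.00705) with TPR A and 0.69 (adjusted p = 0.0165) with TPR D. Without control replicate 2 the control values were 0.86 (adjusted p = 0.00518) for ACIN1 and -0.73 (adjusted p = 0.0212) for RNPS1. Some of these calls were lost when other single cultures were left out. With TPR A, ACIN1 was at 0.69 (adjusted p = 0.0988) without TPR A replicate 2 and 0.46 (adjusted p = 0.249) without TPR A replicate 3, and RNPS1 at -0.70 (adjusted p = 0.110) without TPR A replicate 2. With TPR D both genes lost the call without any 1 of its 3 replicates (adjusted p = 0.0578 to 0.155 for ACIN1 and 0.0656 to 0.0854 for RNPS1). For RNPS1 in control cells the value was -0.52 (adjusted p = 0.167) without control replicate 1.

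SAP18 was the third member with a call, and only in control cells. Its log2 N/C ratios were -0.75, -1.13 and -0.53 in control cells, -0.02, -0.51 and -0.56 with TPR A and 0.004, -0.47 and -0.49 with TPR D. The nuclear level was lower by 0.81 (SE 0.30, adjusted p = 0.0371) in control cells, against -0.37 (adjusted p = 0.387) with TPR A and -0.32 (adjusted p = 0.448) with TPR D. The control value was -0.64 (adjusted p = 0.145) without control replicate 2, -0.83 (adjusted p = 0.124) without control replicate 1 and -0.94 (adjusted p = 0.0588) without control replicate 3. The call was made in 5 of the 9 fits that left out a culture, and in 12 of all 18 alternatives. The difference between control and depleted cells was 0.44 with TPR A (adjusted p = 0.987) and 0.49 with TPR D (adjusted p = 1.00), and so did not itself pass. EIF4A3, MAGOH, MAGOHB and CASC3, all of the core genes analysed, had control values of 0.11, -0.11, -0.001 and 0.01. Their 95% intervals reached -0.73 and 0.71 at their widest. Without control replicate 2 the control values were 0.48 (adjusted p = 0.174), 0.02, 0.17 and -0.10, and 0 of the 4 passed. Of the 7 members, 3 were called in control cells (1 higher and 2 lower in the nucleus), where the share of all genes was 39.4% (20.2% higher and 19.2% lower). In TPR A cells 2 were called (28.4% of all genes, 15.2% higher and 13.2% lower) and with TPR D 2 (31.7%, 17.1% higher and 14.6% lower), and these were ACIN1 and RNPS1 in both.

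**Figure D3:**
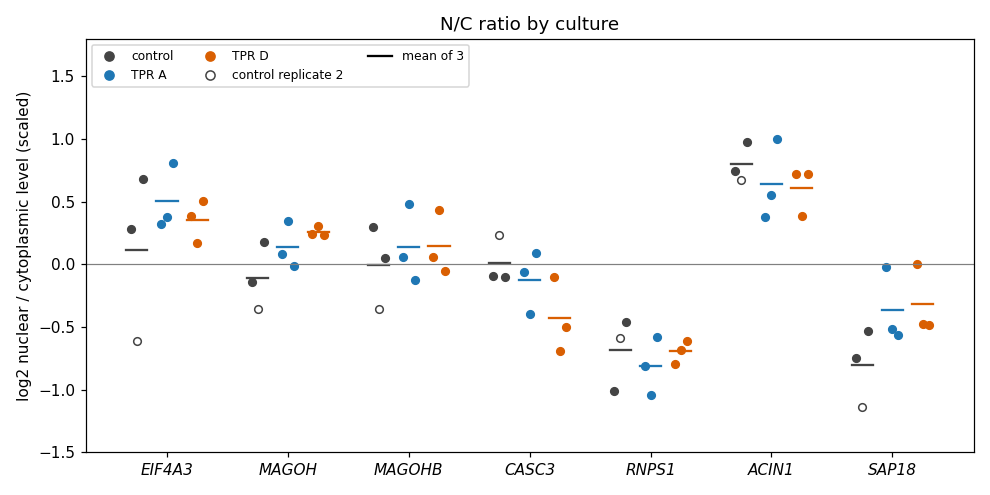
Log2 ratio of the scaled nuclear to the scaled cytoplasmic/ER level (vertical axis) of the 7 members in 9 cultures. Points are cultures, bars the mean of 3, and open circles control replicate 2, and ACIN1 lies above 0 and RNPS1 below 0 in all 9.

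Whether TPR-depletion shifted the members towards the nucleus was measured as the N/C change, the mean log2 N/C ratio of depleted cultures minus that of control cultures. With both shRNAs together it was 0.46 for SAP18, 0.31 for EIF4A3, 0.31 for MAGOH, 0.15 for MAGOHB, -0.07 for RNPS1, -0.17 for ACIN1 and -0.29 for CASC3. None of the 7 passed in limma (adjusted p = 0.999 for each), nor did any of the 14611 genes (0.0%), and at an unadjusted p under 0.05 there were 0 of 7 members and 1.72% of all genes. The same held for each shRNA alone and for the difference between the 2 shRNAs, with 0 of 7 members and 0.0% of all genes called. At an unadjusted p under 0.05 there were 0 of 7 members each time, against 1.47% of all genes with TPR A, 0.821% with TPR D and 0.335% for the difference.

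Over the 84 ways of splitting the 9 cultures, the exact two-sided permutation p was 0.0357 for MAGOH, 0.0714 for SAP18, 0.214 for CASC3, and 0.310 to 0.631 for the other 4, not adjusted for the 7 members, and the smallest p this test can give is 0.0119. The groups overlapped for 7 of 7 members, where 4.6% of all genes had groups that did not (3.07% higher and 1.53% lower in the depleted cultures). Without control replicate 2 the change was 0.18 for MAGOH (exact permutation p = 0.214), 0.30 for SAP18 (exact permutation p = 0.107), -0.05 for EIF4A3 and -0.03 for MAGOHB, so the sign for EIF4A3 and MAGOHB rested on that culture. Replicate 1 has labels of a different form from the rest, and within it the values differed from those within replicates 2 and 3. It gave 0.74 for SAP18 against 0.32, -0.24 against 0.34 for MAGOHB and 0.02 against -0.44 for CASC3. MAGOH was at 0.30 in replicate 1 and 0.31 in the others. The 95% interval of the N/C change ran from -0.30 to 1.23 for SAP18 and from -0.87 to 0.30 for CASC3. Changes within these intervals, no change among them, were not told apart.

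Ordered by the length of the canonical pre-mRNA, the members with a positive N/C change came first. SAP18 (8979 nt), MAGOHB (9417 nt), MAGOH (11619 nt) and EIF4A3 (12760 nt) were the 4 shortest and had positive values, and RNPS1 (15007 nt), CASC3 (31635 nt) and ACIN1 (36573 nt) were the longest and had negative values. The median canonical length of protein-coding genes analysed was 28352 nt, so 5 of the 7 were shorter than that. By the median length over the coding transcripts of each gene, RNPS1 (12639 nt) and ACIN1 (13051 nt) lay close to EIF4A3 (11853 nt). CASC3 was at 26329 nt on that measure, and the same 4 genes were the shortest. Without control replicate 2 the 4 shortest had 2 positive and 2 negative values. The canonical transcripts had 4 exons in SAP18, 5 in MAGOH and MAGOHB, 8 in RNPS1, 12 in EIF4A3, 14 in CASC3 and 19 in ACIN1. A relation of the N/C change to length across all genes was already known when these values were ordered, so that the order is a description of 7 genes and no test of it was made.

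**Figure D4:**
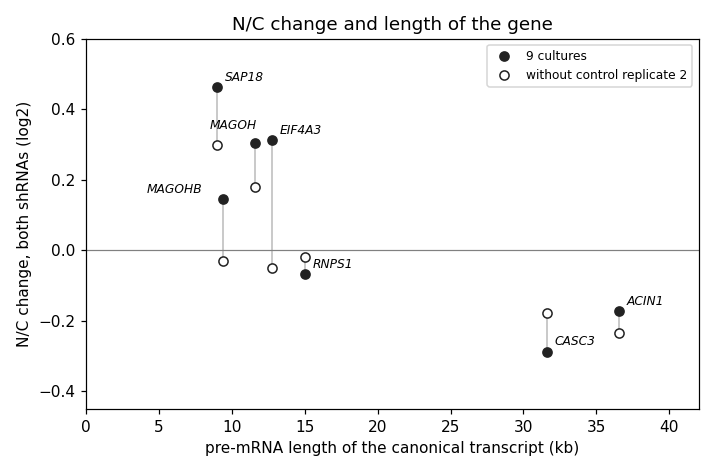
N/C change with both shRNAs (vertical axis, log2, TPR-depleted minus control) against canonical pre-mRNA length in kb (horizontal axis) for the 7 members. Filled points use 9 cultures and open points leave out control replicate 2, which brings EIF4A3 to -0.05 and MAGOHB to -0.03.

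Around the complex, 36 genes, all of them above the filter, were looked at as a list. They were genes of assembly, export, decay and splicing that touch it, together with paralogs of EIF4A3. In control cells 17 were richer in the nucleus and 3 in the cytoplasm/ER, 20 of 36, against 39.4% of all genes. Their median was 0.35 where that of the 7 members was -0.001 and that of all genes -0.01. PNN, the partner of RNPS1 and SAP18 in PSAP, was richer in the nucleus by 1.88 (adjusted p = 9.61e-06), and CWC22, which delivers EIF4A3 to the spliceosome, by 1.87 (adjusted p = 6.04e-05). CWC27, the partner of CWC22, was at 0.81 (adjusted p = 0.0173).

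Of the export genes, THOC2 (2.26), ZC3H11A (1.75), THOC1 (1.31) and the cap-binding NCBP1 (0.91) were called nuclear, and NXT1 (-1.33), the partner of the export receptor NXF1, and THOC6 (-0.68) cytoplasmic. Of the decay genes, UPF2 (1.66), SMG1 (1.37), SMG8 (1.28), UPF3B (1.11) and UPF1 (1.04) were called nuclear and SMG5 (-0.89) cytoplasmic. Of the splicing genes, DDX46 (1.66), LUC7L3 (1.54), SRRM2 (1.19) and SRRM1 (0.89) were called nuclear, as was EIF4A2 (0.69), a translation paralog of EIF4A3, all as log2 nuclear minus cytoplasmic in control cells. Of these 20 genes, 12 were called in each of the 9 fits that left out a culture, and 16 without control replicate 2. CWC27 and UPF3B lost the call without any 1 of the 3 control replicates. THOC6 lost it without control replicate 1 or 2, SRRM1 without 1 or 3, UPF1 and SMG5 without 1, SMG1 without 2 and SRRM2 without 3.

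Of the 36 genes, 15 were called nuclear with TPR A and 1 cytoplasmic (15.2% and 13.2% of all genes). With TPR D these were 17 and 1 (17.1% and 14.6% of all genes). In TPR A cells the nuclear ones were THOC2 (2.02), PNN (1.68), DDX46 (1.61), CWC22 (1.6), SRRM2 (1.52), SMG8 (1.45), ZC3H11A (1.38), UPF2 (1.29), UPF3B (1.26), SRRM1 (1.25), LUC7L3 (1.24), UPF1 (1.20), THOC1 (1.08), NCBP1 (0.83) and EIF4A2 (0.49). The cytoplasmic one was SMG5 (-0.78). In TPR D cells these 15 were called nuclear again, with THOC2 (2.07), CWC22 (1.79), PNN (1.76), ZC3H11A (1.64), DDX46 (1.51), UPF2 (1.43), THOC1 (1.31), SRRM2 (1.24), LUC7L3 (1.23), SMG8 (1.23), UPF3B (1.23), SRRM1 (1.10), UPF1 (0.96), NCBP1 (0.61) and EIF4A2 (0.60), and so were SMG1 (1.22) and CWC27 (0.83). SMG5 (-1.06) was again the cytoplasmic one. All 17 of the nuclear genes were called in control cells as well. In each of the 9 fits that left out a culture 8 of the 16 calls with TPR A and 10 of the 18 with TPR D were made. The N/C change itself called 0 of 36 with either shRNA or both (0.0% of all genes, and 0 of 36 at an unadjusted p under 0.05). The lowest with both were NCBP2 (-0.35) and LUC7L3 (-0.31), and the highest were ALYREF (0.49) and NXT1 (0.59). With TPR A alone the lowest were NCBP2 (-0.42) and SMG1 (-0.37) and the highest ALYREF (0.55) and NXT1 (0.59). With TPR D alone the lowest were LUC7L3 (-0.31) and NCBP1 (-0.30) and the highest ALYREF (0.43) and NXT1 (0.60).

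**Figure D5:**
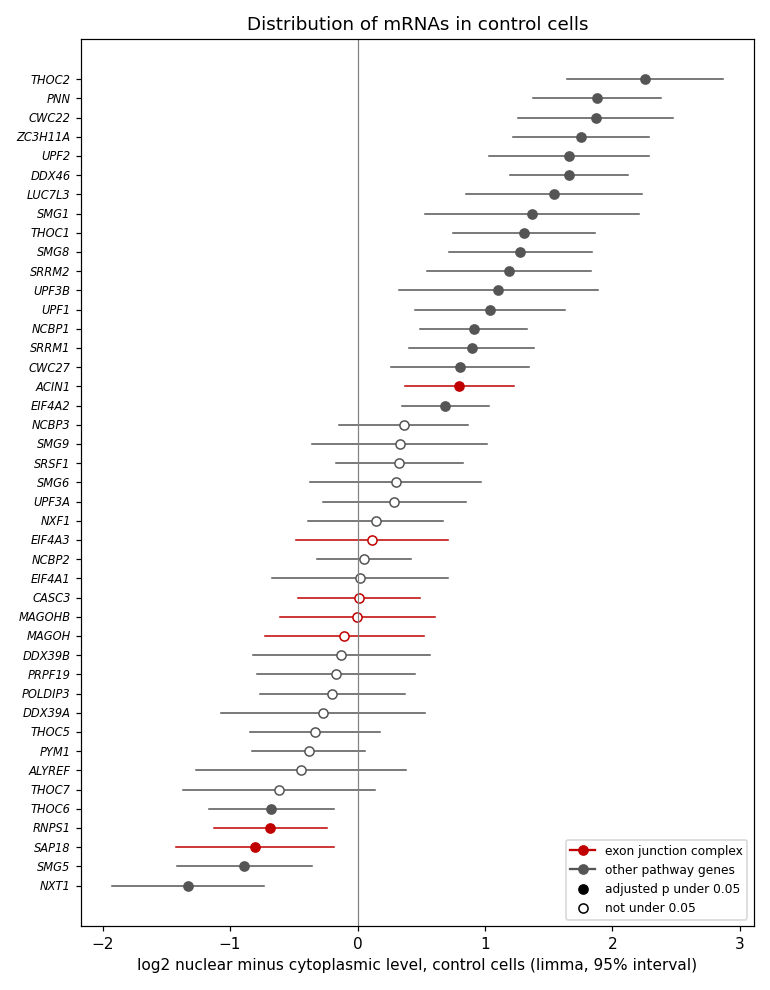
Log2 nuclear minus cytoplasmic/ER level in control cells (horizontal axis, limma estimate with 95% interval) of the 7 members in red and 36 other genes of the pathway in grey. Filled points have an adjusted p under 0.05, and THOC2 (2.26) and NXT1 (-1.33) lie at the ends.

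Across the 6 comparisons of a depleted with a control fraction, 1 of 36 genes was called once. UPF3A, a paralog of the decay factor UPF3B, fell in the nuclear fraction with TPR A by 1.16 (SE 0.27, adjusted p = 0.0399, 0.903% of all genes called), and by 0.92 (adjusted p = 0.188) without control replicate 2. The fit called it in 2 of the 9 in which a culture was left out. With TPR D in the same fraction it was at -0.42 (adjusted p = 0.732) and UPF3B at -0.41, and the highest were PYM1 (0.38), which takes the complex off the mRNA, and DDX39B (0.44), an export helicase.

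In the total fraction 0 of 36 passed. With TPR A the ends were NXF1 (-0.79), UPF3A (-0.77), PYM1 (0.45) and SMG1 (0.54), with 5 of 36 at an unadjusted p under 0.05 (12.6% of all genes). With TPR D they were THOC5 (-0.88), PRPF19 (-0.71), THOC2 (0.42) and LUC7L3 (0.68), also with 5 of 36 (14.6%). In the cytoplasmic/ER fraction 0 of 36 passed either. With TPR A the ends were UPF3A (-1.06, adjusted p = 0.0745), NXF1 (-0.71), EIF4A2 (0.30) and PYM1 (0.55), with 4 of 36 at an unadjusted p under 0.05 (11.6%). With TPR D they were UPF3B (-0.53), NXF1 (-0.39), DDX39B (0.36) and EIF4A2 (0.43), with 1 of 36 (9.42%). Between TPR A and TPR D in the total fraction 0 of 36 passed, with UPF3A (-0.92), SRRM1 (-0.64), SMG9 (0.59) and THOC5 (0.67) at the ends and 3 of 36 at an unadjusted p under 0.05 (7.4%). For the N/C change of TPR A minus that of TPR D these were ZC3H11A (-0.26), PYM1 (-0.24), THOC5 (0.35) and PRPF19 (0.50), with 0 of 36.

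For each member the gene outside the list with the most similar pattern was found by Pearson correlation of the log2 level over 27 libraries, each centred on the mean of its fraction. The libraries share shRNAs, cultures and depth, so the values are descriptions. SAP18 had the closest partner, BNIP1 (0.98), and RNPS1 the least close, HIRA (0.83). The others were PSMB7 for EIF4A3 (0.95), CMSS1 for MAGOH (0.94), COX17 for MAGOHB (0.89), POLR1A for CASC3 (0.89) and DTL for ACIN1 (0.92). Without control replicate 2 the partner of CASC3, ACIN1 and SAP18 was again POLR1A, DTL and BNIP1, and for EIF4A3, MAGOH, MAGOHB and RNPS1 it was CLIC1, SLIRP, PLGRKT and GNB1. Among the members, EIF4A3 varied most with ACIN1 (0.75) and SAP18 (0.74) and MAGOH with MAGOHB (0.68), while MAGOHB and CASC3 went opposite ways (-0.63). These values between members were taken over all 27 libraries only, and not again without control replicate 2. The total library of that culture was the highest control one for every member but RNPS1, so any of these correlations may rest on it.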

How the data were processed

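RNA Frac-Seq was made from 27 libraries of U2OS cells, 3 per combination of shRNA and fraction. The authors quantified reads with Salmon against Gencode v.19 protein-coding and lncRNA transcripts (hg19), and collapsed transcripts to genes with tximport. Their table, as deposited, holds FPKM in 34464 rows. Fold changes that the authors made with DESeq2 were not used. Symbols came from GENCODE 44 on GRCh37, which matched 32776 IDs and left 1688 unmatched. A gene was analysed if its mean exceeded 1 FPKM and it was not 1 of the 13 mitochondrial genes. The 14611 such genes were scaled by median-of-ratios factors and tested as log2(FPKM + 0.1) with limma 3.58.1 (R 4.3.3, trend) in 1 fit of 27 libraries in 9 groups, with Benjamini-Hochberg adjustment over all of them and a threshold of 0.05. Fold changes on this scale understate those of low genes. N/C changes of single genes were also tested by exact permutation of cultures. The fit was tested on simulated data. Python 3.11.15 was used for the rest.

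No read counts were analysed here. Judged by the spacing of low values, 1 FPKM on 1 kb stood for about 31.7 to 87.3 reads per library, which puts the members at about 1169 reads (MAGOH) or more. Sampling of reads thus adds little to the spread between cultures.

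The nuclear and cytoplasmic/ER fractions of a culture come from the same cells, as the methods state, and after subtraction of group means the 2 fractions of a culture correlated at 0.223 to 0.468 across genes. Libraries of 2 shRNAs with the same replicate number correlated at over 0.1 in all 3 pairs for control and TPR A in the total fraction (0.137 to 0.324), and for the pair of depleted groups in nuclear (0.131 to 0.265) and cytoplasmic/ER libraries (0.397 to 0.596). In the other 6 sets at least 1 pair was below 0.1, with values from -0.259 to 0.513. Fits with the replicate or the culture as a block were therefore run too.

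The members and the lists of pathway genes and markers were chosen with earlier results of these data known. All members are named. Of the 36 pathway genes those past an adjusted p of 0.05 are named, or else the 2 highest and the 2 lowest, and 1 further gene of the list is not reported here. The alternatives tried were pseudocounts of 0.01 and 1, other minimum FPKM, values as deposited, no trend, only the groups compared, blocks, and leaving out each culture. Fits within replicates 2 and 3 were added after the data were seen.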

Additional observations from a re-analysis of the deposited data

How the results depend on the processing

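The members were called in 0 of 7 cases in every comparison of depleted with control cells, N/C changes included, under every alternative that was run, among them the pseudocounts of 0.01 and 1 and the minimum of 5 FPKM. For nuclear against cytoplasmic levels the count of 3 in control cells (39.4% of all genes) became 0 within replicates 2 and 3 (22.0%) and ran from 1 to 3 over the fits that each left out a culture, the lowest without control replicate 1 (25.2%). The count of 2 with TPR A (28.4%) became 1 with no minimum FPKM (12.4%) and 0 within replicates 2 and 3 (15.9%), and ran from 0 to 2 over the fits without a culture, at 0 without TPR A replicate 2 (10.7%) and 1 without TPR A replicate 3 (16.9%). The count of 2 with TPR D (31.7%) became 1 with no minimum FPKM (14.5%) and 0 within replicates 2 and 3 (20.4%), and ran from 0 to 2, at 0 without TPR D replicate 1, 2 or 3 (26.6, 16.7 and 18.1%). More genes tested and fewer libraries both make a call harder by construction. In each case the direction of RNPS1 and ACIN1 stayed as it was. The number of members with N/C ratios that did not overlap was 0 with all cultures (4.6% of all genes) and ran from 0 to 2, at 2 where control replicate 3 was left out (11.2%) and at 1 where TPR A replicate 3 was (7.92%). With the replicate number or the culture as a block the counts were 3, 2 and 2 again, and the block called 0 members for the N/C change. No called value of a member or pathway gene changed sign, and 115 values that were never called did. No read counts were analysed here, so no count model was run.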

Other observations

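EIF4A3 was lower in the total fraction than in either of its parts. In the 8 cultures other than control replicate 2 the scaled total level was below both the nuclear and the cytoplasmic/ER level of the same culture in 8 of 8, by 0.88 (SD 0.23, n = 8) and 0.44 (SD 0.23, n = 8) on the log2 scale. SAP18 was below both in 7 of 8 cultures, by 0.56 (SD 0.35, n = 8) and 0.98 (SD 0.55, n = 8). MAGOH was below both in 6 of 8, MAGOHB and CASC3 in 4 of 8, RNPS1 in 1 of 8 and ACIN1 in 0 of 8. Of all 14611 genes, 9.8% were below both in 8 of 8 cultures and 9.03% above both. This was looked at after the values were seen, and was not tested. The deposited FPKM showed the same before scaling, as in control replicate 1, where EIF4A3 was at 67.0 in the total library. It was at 125 FPKM in the nuclear and 105 FPKM in the cytoplasmic/ER library of that culture. Why a total level lay outside those of the parts was not tested.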
